A study of Canis lupus familiaris with 12 samples.

Results

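Oxidative phosphorylation is carried out in the inner mitochondrial membrane by 5 protein complexes. Complexes I to IV pass electrons from NADH and succinate to oxygen and, at complexes I, III and IV, pump protons, and complex V uses the proton gradient to make ATP. A few subunits are encoded by the mitochondrial genome and the remainder by nuclear genes, and heart muscle, which contracts without pause, is among the tissues richest in all of them. The nuclear subunit genes were chosen by name: every row of the deposited gene tables whose symbol starts with NDUFA, NDUFB, NDUFC, NDUFS, NDUFV, UQCR, COX4 to COX8 or ATP5, or is an SDH subunit or CYC1, without the NDUFAF assembly factors and the rows of the mitochondrial genome. This gave 58 rows of the 24223 in each table, 57 of them tested in both tissues. By complex there were 31 rows for complex I, 2 for complex II, 9 for complex III, 8 for complex IV and 5 for complex V. A further 3 rows fit the names but are no constitutive subunits and were placed apart: NDUFA4L2, a hypoxia-inducible relative of NDUFA4, COX7A2L, a factor that joins complexes III and IV into supercomplexes, and ATP5SL, whose name follows an ATP synthase gene.

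The RNA came from dogs with degenerative mitral valve disease (DMVD), in which the leaflets thicken and leak, and from control dogs labelled normal. DMVD left ventricle was sampled from 2 dogs, a Jack Russell Terrier aged 5 years and a Pomeranian aged 9 years, and control left ventricle from 4, a Beagle aged 8 years and Hound mixes aged 3 years. DMVD mitral valve came from 3 dogs, a Pomeranian aged 9 years and Beagles aged 16 and 17 years, and control mitral valve from 3, a Beagle aged 8 years and Hound mixes aged 3 years. By the numbers in the titles these 12 libraries came from 8 dogs, 4 of which gave both tissues, and diagnosis cannot be told apart from breed or age in either tissue. Each table holds 1 value per diagnosis, read as FPKM (fragments scaled by gene length and library size), so no value per dog can be given, the depth of each library is unknown, and the 2 tissues were normalised separately. A log2 fold change is DMVD over control throughout, the value after ± is its standard error (SE), derived from the authors' test statistic, and a gene was called at an adjusted p of 0.05 (Benjamini-Hochberg over all genes the authors tested in that tissue).

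The tables do not cover the complexes evenly. Of 82 textbook nuclear subunits and isoforms, 54 had a row under their own name, complete for complex III (9 of 9), nearly so for complex I (30 of 37), and sparse for complex V (5 of 15). Among those not analysed here are the succinate dehydrogenase iron-sulfur subunit SDHB, the cytochrome oxidase subunits COX5A, COX5B and COX6C and the catalytic ATP synthase subunit ATP5B. UQCRB, a small complex III subunit, was listed at 0 in all 4 groups and was not tested.

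Several rows do not sit where the gene of their name sits. When the named neighbours of each row were compared with those of its gene in the RefSeq annotation (UU_Cfam_GSD_1.0), 47 rows shared neighbours, 5 had a name that the annotation does not list, and 6 shared none: NDUFAB1, NDUFB6, NDUFC1, NDUFS4, ATP5A1 and the second of a pair of rows named NDUFS8. The NDUFS4 row spans 528 bases on chromosome 6 (753205 to 753732, CanFam3.1), the NDUFB6 row 387 bases on chromosome 22 (3526115 to 3526501) and the ATP5A1 row 1657 bases on chromosome 31 (7458866 to 7460522). The COX7B row, with a name not listed, spans 243 bases on chromosome 17 (25587168 to 25587410). Reads of a parent gene and of a near-identical copy elsewhere could be shared between loci, so the levels of these rows are uncertain. The row for ATP5A1, the alpha subunit of the F1 head of complex V, had only 22.7 FPKM in DMVD and 26.4 FPKM in control ventricle, the lowest of its complex in the control ventricle. The NDUFS8 row on chromosome 18 (49796596 to 49799675), which lies among its gene's neighbours, had 502 FPKM in DMVD and 483 FPKM in control ventricle, while the row on chromosome 21 had 33.8 FPKM in DMVD and 30.5 FPKM in control ventricle.

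Subunit transcripts were abundant in both tissues and in both diagnoses. In the ventricle 45 of the 57 tested rows had at least 100 FPKM in DMVD and 45 in control, and in the valve 35 did in DMVD and 43 in control. The most abundant row was COX7B, a small subunit of complex IV, at 8165 FPKM in DMVD and 8799.98 FPKM in control ventricle, and it was also the first of the control valve list at 2775 FPKM, with 1386 FPKM in DMVD valve. Complex III followed, with the small subunits UQCRQ, which helps to bind ubiquinone, at 6889.8 FPKM in DMVD and 5094 FPKM in control ventricle, and UQCR11 at 6098 FPKM in DMVD and 4464 FPKM in control ventricle. The highest of complex I was NDUFB3, a membrane-arm subunit, at 1916 FPKM in DMVD and 1971 FPKM in control ventricle, and the highest of complex V was the coupling factor 6 gene ATP5J at 2533 FPKM in DMVD and 2401 FPKM in control ventricle. By median of the tested rows, complex III came first in all 4 groups, at 1798 FPKM in DMVD and 1592 FPKM in control ventricle, and at 534 FPKM in DMVD and 869 FPKM in control valve. The median of complex I was 277 FPKM in DMVD and 327 FPKM in control ventricle, and 117 FPKM in DMVD and 208 FPKM in control valve. Rows within 1 complex differed far more than the groups did, although the subunits stand in fixed proportion in the enzyme. Tested rows of complex III ran from 236 to 6889.8 FPKM in DMVD and from 395 to 5094 FPKM in control ventricle. Those of complex IV ran from 15.3 to 8165 FPKM in DMVD and from 18.7 to 8799.98 FPKM in control ventricle. In complex IV the lowest was COX4I2, an alternative form of COX4, and the highest COX7B, a row of uncertain level. FPKM values of the shortest rows depend on how the length of a short gene was corrected for.

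**Figure D1:**
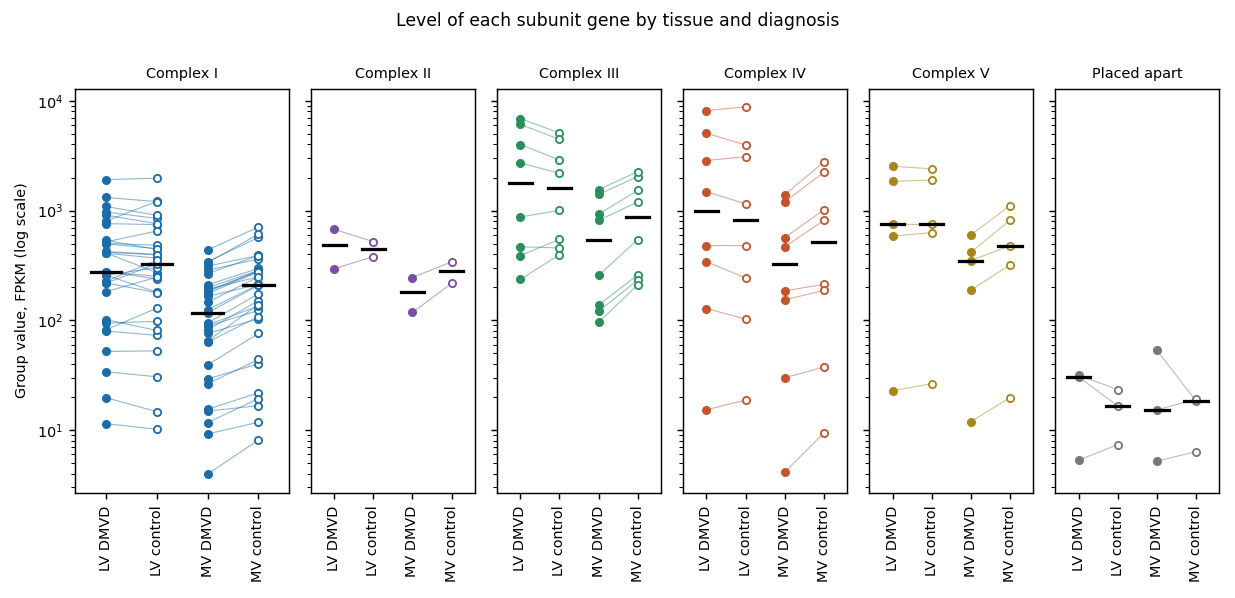
Group values of the 57 tested rows in FPKM on a log axis, by complex, with a line joining the DMVD value (filled) and the control value (open) of each gene within a tissue and a black bar at the median. Lines in the ventricle (LV) run both ways, and all lines of complexes I to V in the valve (MV) lead from a lower DMVD value to a higher control value, as in complex IV with medians of 326 FPKM in DMVD and 513 FPKM in control valve.

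The valve samples held subunit transcripts at lower levels than the ventricle samples. Set side by side, the valve value was below the ventricle value for 56 of 57 rows in control dogs and for 56 of 57 in DMVD dogs, with NDUFA4L2 the exception in both. The median log2 ratio of valve over ventricle was -1.60 in DMVD dogs and -0.88 in control dogs. The median over all rows above 1 FPKM in both tissues was 0.34 in DMVD dogs and 0.31 in control dogs, and since the tables were normalised separately no test was made. The ratio in control dogs was lowest for complex IV, with a median of -1.18, and nearest 0 for complex II, with a median of -0.71. Markers of heart muscle were abundant in the valve samples as well. The 12 cardiomyocyte markers tested in the valve summed to 14591 FPKM in DMVD and 30922 FPKM in control valve. The 10 tested in the ventricle summed to 43754 FPKM in DMVD and 50475 FPKM in control ventricle. MYH7 and CKM were marked there as too deep to test and listed at 0 in control. Only the valve sums include them (MYH7 at 1280 FPKM in DMVD and 3068 FPKM in control, CKM at 840 FPKM in DMVD and 2411 FPKM in control). The sums of the 2 tissues thus cover unlike sets of markers. The valve samples carried their own markers too, with lumican (LUM), a small proteoglycan of fibrous tissue, at 620.3 FPKM in DMVD and 575 FPKM in control valve, against 56.9 FPKM in DMVD and 73.6 FPKM in control ventricle. In bulk tissue, fewer muscle cells and less RNA of a gene per cell cannot be told apart.

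In the left ventricle the question is whether the pumping chamber of dogs with a leaking valve differs in these genes. No subunit passed: 0 of 57 were called by the authors' test with Benjamini-Hochberg adjustment, the lowest adjusted p was 0.675 (UQCRC1), and 0 had an unadjusted p under 0.05. Over all genes tested in this tissue 3.08% were called and 11.3% had an unadjusted p under 0.05. The fold changes of the subunits lay between -0.74 and 0.88 on the log2 scale, with a median of 0.09, against -0.04 for all tested genes and 0.27 for abundant tested genes (100 FPKM or more on average). DMVD values were below control for 21 of the 57 rows and above it for 36, while 52.9% of all genes and 31.2% of the genes of at least 100 FPKM were below control. The direction of the median depends on the scaling, since it was -0.18 with the abundant genes centred on 0 or with the summed FPKM outside the mitochondrial genome made equal.

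The size of change that these data could have missed is wide. The SE of a subunit's fold change in the ventricle was 0.41 to 2.94, with a median of 0.51, and the 95% interval lay within -1 to 1 for only 5 of 57 rows, against 8.82% of all genes. These 5 rows hold values close to 0, and for the other 52 rows a doubling or a halving was inside the interval or at its edge.

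Within the ventricle, core subunits had lower fold changes than accessory subunits by their medians. The 14 core rows include the conserved subunits of the complex I arm that carries electrons to ubiquinone, with both NDUFS8 rows. The others are SDHA, SDHC, the redox subunits CYC1 and UQCRFS1 of complex III, and ATP5A1 and ATP5D of the F1 head of complex V. The ATP5A1 row and the NDUFS8 row on chromosome 21 do not lie among their gene's neighbours. Of the 14 core rows, 10 had a DMVD value below control, with a median of -0.22. Of the 40 other subunits of the complexes, 10 had a DMVD value below control and 30 above it, with a median of 0.14. With the abundant genes centred on 0 the medians were -0.49 for the core rows and -0.13 for the others. The side of 0 on which the other subunits lie thus depended on the scaling. Recentring shifts every row by the same amount, so it could not change the order of the medians. The split was drawn up after the values had been seen, no row in it passed, and it was not tested.

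Complex I holds 8 of the core rows, of which 5 had DMVD values below control in the ventricle and 3 above it. NDUFV1, which binds FMN and accepts electrons from NADH, had 81.9 FPKM in DMVD and 129 FPKM in control ventricle (-0.65 ± 0.57). NDUFS1, the largest iron-sulfur subunit, had 182 FPKM in DMVD and 247 FPKM in control ventricle (-0.44 ± 0.64). Both values were below control, but each interval reached above 0, for example -1.78 to 0.47 for NDUFV1. NDUFS3 (257 FPKM in DMVD, 301 FPKM in control, -0.23 ± 0.45) and NDUFS7 (518 FPKM in DMVD, 651 FPKM in control, -0.33 ± 0.49), further core subunits of the arm that faces the matrix, also had lower DMVD values. The 3 core rows above control were NDUFV2, which holds an iron-sulfur cluster next to NDUFV1, with 101 FPKM in DMVD and 80.7 FPKM in control (0.33 ± 0.51), and both NDUFS8 rows (0.06 ± 0.47 on chromosome 18 and 0.15 ± 0.44 on chromosome 21).

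Most accessory subunits of complex I had DMVD values a little above control on the deposited scale. NDUFA7 had 411 FPKM in DMVD and 271 FPKM in control ventricle (0.60 ± 0.42, adjusted p = 0.714 in the authors' test with Benjamini-Hochberg adjustment), and NDUFB4 had 258 FPKM in DMVD and 179.8 FPKM in control ventricle (0.52 ± 0.45). Both were among the 3 highest fold changes of the subunit rows in the ventricle, and both intervals included 0. Of the 23 accessory rows of complex I, 18 were above control and 5 below. The lowest of them were NDUFA11, a membrane-arm subunit, with 802 FPKM in DMVD and 1210.4 FPKM in control (-0.59 ± 0.52), and NDUFA10, a subunit of nucleotide kinase ancestry, with 218 FPKM in DMVD and 327 FPKM in control (-0.59 ± 0.49).

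Complex II has core rows only here, and they lay on either side of 0. SDHA, the flavoprotein that oxidises succinate, had 294 FPKM in DMVD and 381 FPKM in control ventricle (-0.37 ± 0.54), and SDHC, a membrane anchor, had 673 FPKM in DMVD and 519.9 FPKM in control (0.37 ± 0.47). In complex III both core rows were below control, and so was 1 of the 6 others. UQCRC1, a large matrix-facing subunit counted among the others (gene ENSCAFG00000012329, chromosome 20, 40507852 to 40515725), had the lowest fold change of all, with 236 FPKM in DMVD and 395 FPKM in control ventricle (-0.74 ± 0.50, interval -1.72 to 0.23). Cytochrome c1 (CYC1) had 389 FPKM in DMVD and 547 FPKM in control (-0.49 ± 0.73), in a locus it shares with 21 other genes. The Rieske iron-sulfur subunit UQCRFS1 had 874 FPKM in DMVD and 1004 FPKM in control (-0.20 ± 0.53), and UQCRC2, the partner of UQCRC1, had 468 FPKM in DMVD and 456 FPKM in control (0.04 ± 0.51). The small subunits UQCRQ (0.44 ± 0.52), UQCR11 (0.45 ± 0.62), UQCR10 (0.47 ± 0.78) and UQCRH (0.32 ± 0.50) all had DMVD values above control.

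Complex IV had a median of 0.16 in the ventricle on the log2 scale, with values between -0.30 and 0.49, and complex V one of -0.04. The complex IV median was 0.35 over rows that share a neighbour with their gene and -0.11 with the abundant genes centred on 0, and the complex V median was -0.31 with that centring. COX8A had 341 FPKM in DMVD and 243 FPKM in control (0.49 ± 0.43), the highest of complex IV, and COX7C had 479.8 FPKM in DMVD and 479 FPKM in control (0.00 ± 0.63). In complex V the 5 values lay between -0.22 for ATP5A1 and 0.08 for ATP5J. ATP5G1, which encodes the c subunit of the rotor, had 749 FPKM in DMVD and 746 FPKM in control (0.01 ± 0.55, interval -1.07 to 1.08), and the delta subunit ATP5D had 585 FPKM in DMVD and 629 FPKM in control (-0.11 ± 0.45).

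**Figure D2:**
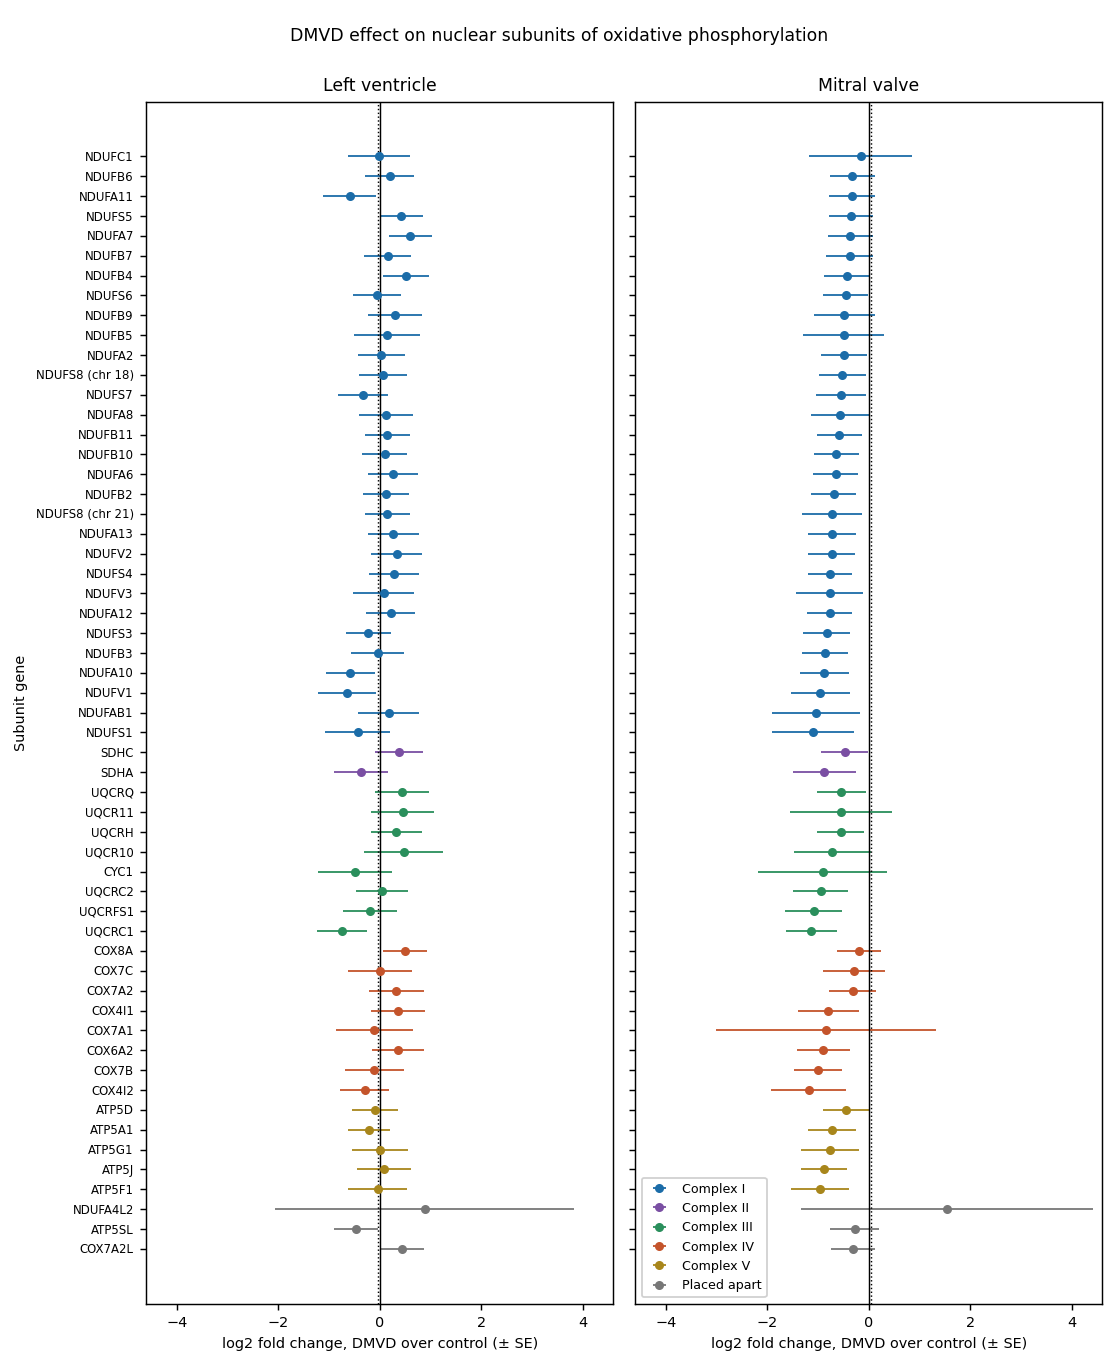
Log2 fold change of DMVD over control with its SE for 56 of the 57 tested subunit rows in the ventricle (left) and the valve (right), coloured by complex. The solid line is 0 and the dotted line the median of all tested genes. Ventricle values scatter on both sides of 0, from -0.74 to 0.88, and every valve value except NDUFA4L2 lies below 0.

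In the mitral valve nearly all subunits had lower DMVD values. Of the 57 tested rows 56 were below control, including all 54 of complexes I to V, while 45.3% of all tested genes and 52.6% of the abundant ones were below control. The median log2 fold change of the subunits was -0.69, against 0.05 for all tested genes and -0.03 for tested genes of at least 100 FPKM. With the subunits left out, the median of those abundant genes was 0.00. Summed over the tested rows, subunits had 15670.5 FPKM in DMVD and 25627 FPKM in control valve, or 61.1% of control.

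One by one, none of these valve differences passed. The authors' test with Benjamini-Hochberg adjustment called 0 of 57 rows, against 0.419% of all genes tested in the valve, and 2 rows had an unadjusted p under 0.05, both lower in DMVD, against 4.2% of all genes in either direction and 1.47% lower in DMVD. The median SE was 0.49, and the interval included 0 for 55 of 57 rows and lay within -1 to 1 for 0, against 7.05% of all genes. The rows are not independent of each other, since all 57 are read from the same 6 libraries, so their shared direction does not say how many dogs showed it.

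The 2 rows with an unadjusted p under 0.05 belong to complexes III and IV. UQCRC1 had 95.5 FPKM in DMVD and 210.2 FPKM in control valve, a log2 fold change of -1.14 ± 0.50 with an interval of -2.13 to -0.15. Its p in the authors' deposited table was 0.0242, and its adjusted p was 0.837 in the authors' test with Benjamini-Hochberg adjustment. COX7B had 1386 FPKM in DMVD and 2775 FPKM in control valve (-1.002 ± 0.47, interval -1.92 to -0.08). Its p in the authors' deposited table was 0.0326 and its adjusted p was 0.978 with the same adjustment.

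The medians of the 5 complexes lay between -0.64 and -0.82 in the valve, and differences between complexes were not tested. Complex IV was the lowest at -0.82, with complex III at -0.81, complex V at -0.77, complex II at -0.68 and complex I at -0.64. Core subunits had a median of -0.78 and the other subunits of the complexes one of -0.65. Within complex I the lowest values were NDUFS1 with 64.8 FPKM in DMVD and 139 FPKM in control (-1.10 ± 0.81), NDUFAB1, the mitochondrial acyl carrier protein, with 3.95 FPKM in DMVD and 8.10 FPKM in control (-1.04 ± 0.86), and NDUFV1 with 39.1 FPKM in DMVD and 75.8 FPKM in control (-0.96 ± 0.58). The NDUFAB1 row is of low level, and with 1 FPKM added to both groups it was -0.88 and NDUFV1 was lower at -0.94. The value nearest 0 was that of NDUFC1, at 14.9 FPKM in DMVD and 16.6 FPKM in control (-0.16 ± 1.01). Like the NDUFAB1 row, the NDUFC1 row lies away from its gene's neighbours.

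Single rows lay between -0.88 and -0.47 in complex II, between -1.14 and -0.54 in complex III, between -1.19 and -0.20 in complex IV and between -0.96 and -0.45 in complex V. In complex II, SDHA had 118 FPKM in DMVD and 217 FPKM in control (-0.88 ± 0.62) and SDHC had 245 FPKM in DMVD and 340.4 FPKM in control (-0.47 ± 0.46). In complex III, UQCRFS1 had 256 FPKM in DMVD and 543 FPKM in control (-1.09 ± 0.56), UQCRC2 had 121 FPKM in DMVD and 233 FPKM in control (-0.95 ± 0.54), and CYC1 had 138 FPKM in DMVD and 259 FPKM in control (-0.91 ± 1.27). The small subunits UQCRQ (-0.54 ± 0.49), UQCRH (-0.56 ± 0.46), UQCR11 (-0.55 ± 1.01) and UQCR10 (-0.72 ± 0.75) had values nearer 0, and differences between rows were not tested. In complex V, ATP5F1, a subunit of the peripheral stalk, had 417 FPKM in DMVD and 812 FPKM in control (-0.96 ± 0.58), ATP5J had 599.9 FPKM in DMVD and 1104 FPKM in control (-0.88 ± 0.45), and ATP5D was nearest 0 at 350.04 FPKM in DMVD and 477 FPKM in control (-0.45 ± 0.46).

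**Figure D3:**
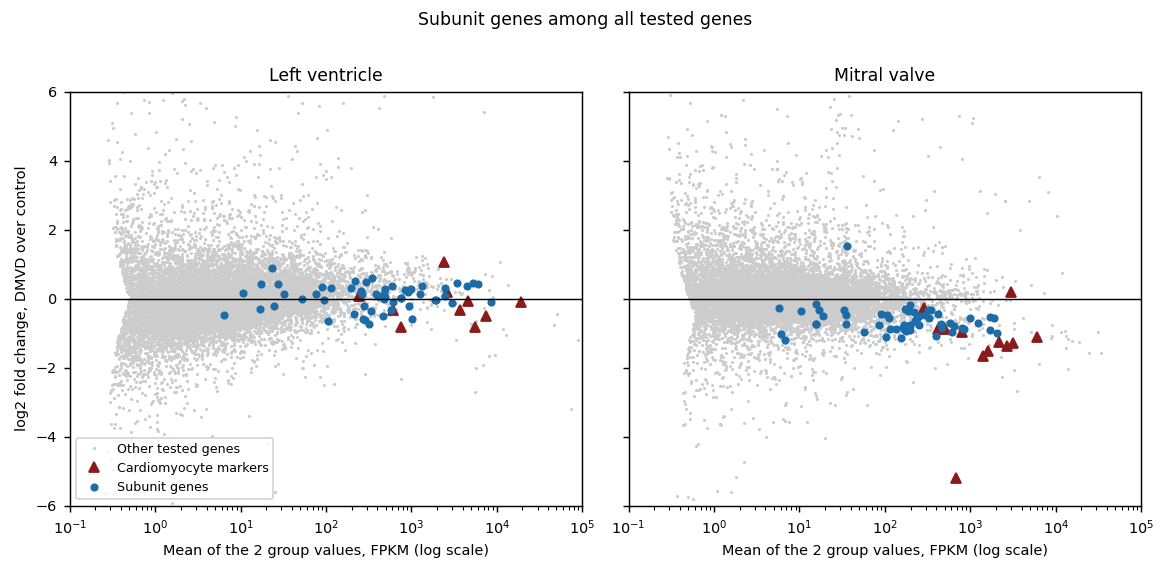
Log2 fold change of DMVD over control against the mean of the 2 group values in FPKM (log axis) for all tested genes above 0 in both groups (grey), the cardiomyocyte markers (triangles) and the subunit genes (blue). Beyond 6 on either side of 0, 23 genes of the ventricle and 38 of the valve are not drawn. Subunits straddle 0 in the ventricle and, apart from NDUFA4L2, lie below 0 in the valve, where 11 of 12 cardiomyocyte markers lie below 0 too.

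Most heart muscle markers, like the subunits, had lower values in DMVD valve. Of 12 tested cardiomyocyte markers 11 had a lower DMVD value, with a median of -1.19, and none of the 12 was at 0. One of them was called: MYL3, the essential light chain of ventricular and slow muscle, fell to 36.6 FPKM in DMVD valve, against 1335 FPKM in control valve (-5.19 ± 0.68, adjusted p = 2.64e-10 in the authors' test with Benjamini-Hochberg adjustment). Cardiac troponin I (TNNI3) had 683 FPKM in DMVD and 2143 FPKM in control (-1.65 ± 1.12), and myoglobin (MB) had 1507 FPKM in DMVD and 3912 FPKM in control (-1.38 ± 1.21). The summed FPKM of the 12 markers was 14591 in DMVD and 30922 in control valve, beside 15670.5 and 25627 for the subunits. In the ventricle the 10 tested markers had a median of -0.22, or -0.49 with the abundant genes centred on 0, and none was called. The part of muscle content in the valve values of the subunits was not tested.

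Markers of other cells had higher values in DMVD valve, and few of them passed. All 4 tested fibroblast or valve interstitial markers (median 0.22), all 7 tested endothelial markers (median 0.53) and all 8 macrophage markers (median 1.65) had DMVD values above control, except that 1 fibroblast marker lay below 0 with equal sums of FPKM outside the mitochondrial genome. Of these, the endothelial sialomucin EMCN rose by 2.37 ± 0.53 (adjusted p = 0.00574 in the authors' test with Benjamini-Hochberg adjustment). It was the 1 of 7 called in its list, against 2 of 8 in the macrophage list and 0 of 4 in the fibroblast list. Those 2 were C1QB and S100A9, and S100A9 is a neutrophil gene too. All 3 red cell markers above 0 in both groups were higher in DMVD valve (median 2.52), with 1 called. This was HBA, with 604 FPKM in DMVD and 34.4 FPKM in control valve (4.13 ± 0.65, adjusted p = 5.70e-07 in the authors' test with Benjamini-Hochberg adjustment). In the ventricle the endothelial (median 0.64), macrophage (median 1.40) and red cell (median 6.13) lists had medians above 0 as well. They had 1, 3 and 4 called members in that order, and the 3 of the macrophage list were S100A8, S100A9 and C1QB. The endothelial markers summed to 122 FPKM in DMVD and 60.5 FPKM in control valve, and the macrophage markers to 236 FPKM in DMVD and 74.9 FPKM in control valve. The part of cell mixture in the subunit values of either tissue was not tested.

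The DMVD effects of the tissues were compared gene by gene as the valve log2 fold change minus the ventricle log2 fold change. This difference was below 0 for 54 of 57 subunits, with a median of -0.75, and 46.7% of all genes were below 0. That share was not taken for abundant genes alone. Tested genes of at least 100 FPKM had a median fold change of -0.03 in the valve and 0.27 in the ventricle, so they too lay lower in the valve. No subunit passed (two-sided normal test on the summed squared SE, Benjamini-Hochberg over 13099 genes), and 0 had an unadjusted p under 0.05. Of all genes 0.107% passed and 2.66% had an unadjusted p under 0.05. The largest difference was that of COX6A2, with -0.90 ± 0.52 in the valve and 0.35 ± 0.51 in the ventricle, a difference of -1.25 ± 0.73 with an interval of -2.68 to 0.18. COX4I1 had a difference of -1.16 ± 0.80 and UQCR10 one of -1.19 ± 1.08. NDUFV1 (-0.30 ± 0.82) and UQCRC1 (-0.39 ± 0.71) had smaller differences, since their DMVD values were below control in the ventricle too. Because 4 dogs gave both tissues the errors are not independent, and with an assumed correlation of 0.5 between them 9 subunits had an unadjusted p under 0.05 while 0 passed the adjustment.

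Complex IV has subunits with tissue isoforms, and its rows give the RNA levels of some of these forms. COX6A1, the counterpart of COX6A2, had no row under its own name, so the forms of COX6A could not be compared. COX6A2 and COX7A1 are the isoforms of heart and skeletal muscle, COX7A2 is the form found in most tissues, and COX4I2 is a form of COX4 known from lung and from hypoxic cells. COX6A2 (chromosome 6, 16807155 to 16807719) had 5064 FPKM in DMVD and 3961 FPKM in control ventricle, and 1199 FPKM in DMVD and 2231 FPKM in control valve. COX7A1 (chromosome 1, 116546807 to 116557870) had 2858 FPKM in DMVD and 3097 FPKM in control ventricle, and 565 FPKM in DMVD and 1016 FPKM in control valve. Transcripts of the muscle forms of both subunits were thus plentiful in valve as well as ventricle samples. COX7A2 had 128 FPKM in DMVD and 102 FPKM in control ventricle, and 29.9 FPKM in DMVD and 37.3 FPKM in control valve.

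On the per-length scale COX7A1 exceeded COX7A2 by 22.3 times in DMVD and 30.3 times in control ventricle, and by 18.9 times in DMVD and 27.2 times in control valve. The ratio was thus lower in DMVD in both tissues. The name of the COX7A2 row is among the 5 that the annotation does not list and its locus is shared with another gene, so the ratio rests on a row that could not be checked. The 2 fold changes behind it do not differ beyond their errors (-0.12 ± 0.76 for COX7A1 and 0.32 ± 0.54 for COX7A2 in the ventricle, and -0.85 ± 2.16 and -0.32 ± 0.46 in the valve). COX4I1, the common form of COX4, had 1482 FPKM in DMVD and 1153 FPKM in control ventricle, and 466 FPKM in DMVD and 813 FPKM in control valve. COX4I2 had 15.3 FPKM in DMVD and 18.7 FPKM in control ventricle, and 4.11 FPKM in DMVD and 9.35 FPKM in control valve. Its fold change of -1.19 ± 0.74 was the lowest among the subunits in the valve, though with 1 FPKM added to both groups it was -1.02 and UQCRC1 was lower at -1.13. COX4I1 exceeded COX4I2 by 61.5 to 113 times over the 4 groups.

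Of the rows placed apart, 1 had a higher DMVD value in the valve. NDUFA4L2 (chromosome 10, 1357229 to 1463472, a locus shared with 3 other genes) was the only one of the 57 tested rows with such a value, at 53.2 FPKM in DMVD and 18.4 FPKM in control (1.53 ± 2.87), and it had 30.4 FPKM in DMVD and 16.5 FPKM in control ventricle (0.88 ± 2.94). Its SE was the largest of all subunit rows in both tissues, so neither value can be told from 0. COX7A2L had 15.3 FPKM in DMVD and 19.0 FPKM in control valve (-0.32 ± 0.43) and 31.5 FPKM in DMVD and 23.3 FPKM in control ventricle (0.44 ± 0.43). Its difference between the tissues, -0.75, was at the median of the subunits. ATP5SL had 5.20 FPKM in DMVD and 6.33 FPKM in control valve (-0.28 ± 0.49), and 5.30 FPKM in DMVD and 7.36 FPKM in control ventricle (-0.47 ± 0.43).

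Genes that build and serve the chain followed the subunits in direction in the valve. Of 32 tested assembly factors 31 had lower DMVD values in the valve, with a median of -0.40 and none called. BCS1L, which inserts the Rieske protein into complex III, had the smallest p, with 6.58 FPKM in DMVD and 14.5 FPKM in control valve (-1.14 ± 0.49, adjusted p = 0.801 in the authors' test with Benjamini-Hochberg adjustment). In the ventricle 22 of 32 were lower, with a median of -0.17 and none called, and with the abundant genes centred on 0 it was 26 of 32 with a median of -0.44. The smallest p there belonged to TACO1, a translational activator of the mitochondrial COX1 mRNA, with 8.25 FPKM in DMVD and 19.0 FPKM in control (-1.20 ± 0.47). Of 9 tested partner genes, among them cytochrome c, the electron transfer flavoproteins and the ADP/ATP carrier SLC25A4, all 9 had lower DMVD values in the valve (median -0.66) and 3 did in the ventricle (median 0.23), with none called in either tissue. The ventricle median of the partners was -0.03 with the abundant genes centred on 0. The ATP synthase inhibitor ATPIF1 had 598 FPKM in DMVD and 907 FPKM in control valve (-0.60 ± 0.46) and 2593 FPKM in DMVD and 1886 FPKM in control ventricle (0.46 ± 0.50).

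Regulators of mitochondrial biogenesis had values on both sides of 0. Of 13 tested genes 8 had lower DMVD values in the valve (median -0.14) and 8 in the ventricle (median -0.25), with none called. With equal sums of FPKM outside the mitochondrial genome 10 were lower in the valve (median -0.27) and 11 in the ventricle (median -0.52). The coactivator PPARGC1A had 5.66 FPKM in DMVD and 7.49 FPKM in control valve (-0.40 ± 0.47), and 15.9 FPKM in DMVD and 9.59 FPKM in control ventricle (0.73 ± 0.43). The mitochondrial transcription factor genes TFAM and TFB2M had lower DMVD values in both tissues, -0.75 ± 0.67 and -0.93 ± 0.45 in the valve, and -0.51 ± 0.50 and -0.25 ± 0.44 in the ventricle.

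**Figure D4:**
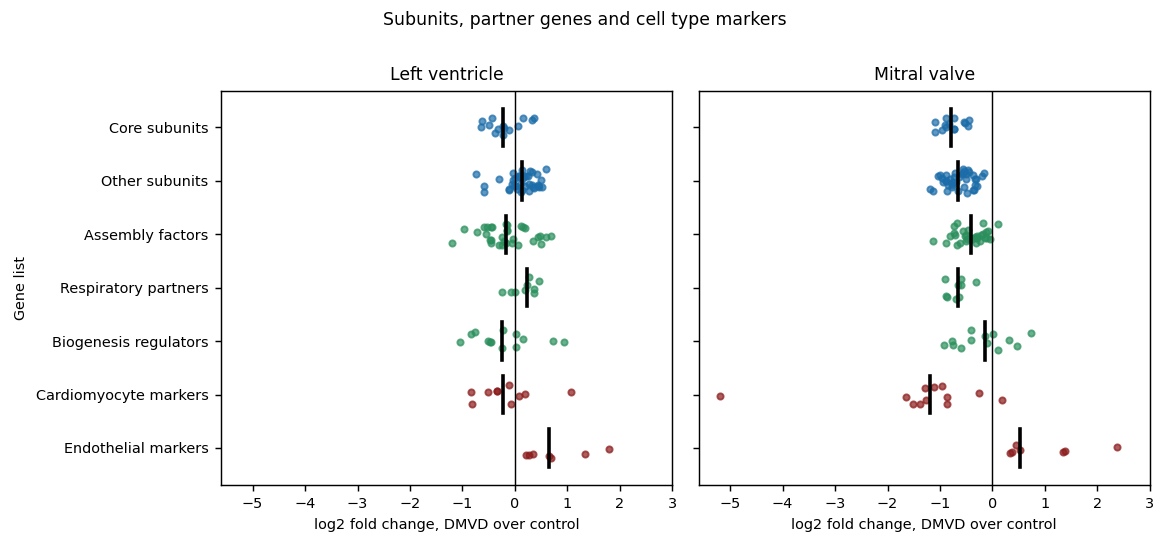
Log2 fold change of DMVD over control for each tested gene of 7 lists (points, spread vertically at random) with the median of each list as a black bar, in the ventricle (left) and the valve (right). In the ventricle the core subunits have a median of -0.22 and the other subunits one of 0.14 (-0.13 with the abundant genes centred on 0), and in the valve the medians are -0.78 and -0.65, beside -1.19 for cardiomyocyte markers and 0.53 for endothelial markers.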

How the data were processed

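RNA of left ventricle and mitral valve was sequenced in 12 libraries, and the authors deposited 1 table per tissue. The submitters' processing notes name cutadapt, Bowtie, TopHat and the build CanFam3.1; which program gave the values per gene was not stated there. Per the file headers, each table holds 1 value per diagnosis in the layout of a Cuffdiff gene table, which the authors deposited without naming the unit and which was read as FPKM. The p-value deposited beside it is unadjusted. The deposited log2 fold change has control on top, with a filler number for groups at 0, and the deposited statistic, a score, had the opposite sign in every tested row above 0 in both groups.

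Fold changes were taken anew with DMVD on top, and the SE is the fold change divided by the statistic, whose two-sided normal p came within 2.84e-06 of the deposited one. P-values were adjusted by Benjamini-Hochberg over 13788 genes in the ventricle and 14810 in the valve, and intervals are 1.96 SE to either side. The planned fits needed values per library, and the plan foresaw the authors' test for group values. Tissues were compared over 13099 genes above 0 in all groups. The step was run on simulated data with independent errors and shifts larger than any subunit difference. That run does not show how well differences of the reported size would be found. Listed starts were raised by 1, since 5 of 7 subunit rows under 800 bases then span whole codons. A row shared a neighbour with its gene where any of the 10 named genes on each side of it lay within 30 genes in RefSeq. Named members were those with the 3 highest and 3 lowest fold changes of a tissue at a mean of at least 5 FPKM, isoform families, a list of catalytic and core subunits (with UQCRC1, UQCRC2 and COX4I1, which the core rows of the report leave out), and the most and least abundant of each complex; others are named where a count or a role called for it, after their values were seen. The values of 1 subunit are not reported here, though counts and medians include it. Members and lists were chosen with earlier results of these data known. Tables were handled in pandas 2.3.3 and numpy 2.4.6 under Python 3.11.15, tests used scipy 1.17.1, and figures matplotlib 3.10.9.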

Additional observations from a re-analysis of the deposited data

How the results depend on the processing

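The count of called subunits was 0 in the ventricle, in the valve and between the tissues under every alternative run (filters on low values, Benjamini-Yekutieli adjustment, recentring, loci of a single gene, correlated errors). Benjamini-Yekutieli adjustment is stricter, and the runs on part of the rows kept the same adjusted p-values. These runs could therefore not have added a call. Counts at an unadjusted p under 0.05 moved. In the valve the 2 became 5 with the median of all tested genes set to 0, 11 with equal sums of FPKM outside the mitochondrial genome, and 1 among rows that share a neighbour with their gene, which leaves out COX7B. In the ventricle the 0 became 1 with genes of at least 100 FPKM centred on 0 and 1 with equal sums. Between the tissues the 0 became 9 with errors correlated at 0.5. Settings with the abundant genes, the equal sums and the neighbours were chosen after seeing the data. The median of all subunits ranged from -0.83 to -0.66 in the valve and from -0.18 to 0.13 in the ventricle. In the ventricle 4 of 5 complexes had a median above 0 as deposited and 0 of 5 under either added scaling. One of the 4 was complex II, whose median over 2 rows was only 1.1e-05 as deposited. Placing NDUFA4 in complex I could not be run, since no row carries that name. No paired analysis was possible because the columns hold 1 value per group and carry no replicate numbers, and leaving out single libraries could not be run for the same reason. The depth of each library is unknown, and errors are the authors' model errors.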
